A study of Mus musculus with 12 samples.

Results

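The genes described are 45 enzymes and carriers of the urea cycle and of amino acid breakdown in mouse liver, taken by name from a table of 18227 genes. All 45 were in the table and all 45 passed the filter on low counts, which left 15647 genes for testing. They comprise 8 genes of the urea cycle and its carriers, 5 of transamination and glutamate, 4 of tyrosine breakdown, 5 of the tryptophan and kynurenine route, 8 of histidine, serine and glycine breakdown, 8 of methionine and sulfur metabolism, 3 of proline breakdown and 4 of branched-chain amino acid and lysine breakdown. The measurements came from poly(A) RNA sequencing of hepatocytes freed from the liver remnant by collagenase perfusion and a low-speed spin after 70% of the liver had been removed. Such a preparation enriches hepatocytes and does not sort them.

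Hepatocytes break amino acids down to carbon skeletons and ammonia, and the urea cycle turns that ammonia into urea for excretion. Cps1 makes carbamoyl phosphate in the mitochondrion, Otc joins it to ornithine, Ass1 and Asl build and split argininosuccinate in the cytosol, and Arg1 releases urea. Nags makes the obligate activator of Cps1, and Slc25a15 and Slc25a13 carry ornithine and aspartate across the inner mitochondrial membrane. In the intact liver the urea cycle enzymes are most abundant in periportal hepatocytes, and glucocorticoids, glucagon and dietary protein raise many amino acid-degrading enzymes. After partial hepatectomy a remnant has to keep up such functions while its hepatocytes enter the cell cycle.

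All groups were male WT mice of the BALB/C strain, aged 8 weeks, with a liver resection of 70%. The groups labelled anti-Gr1 received 200 µg of an antibody against Gr1, an antigen of granulocytes that includes the Ly6g product, in 100 µl into the peritoneum, with the aim of removing granulocytic myeloid-derived suppressor cells. The groups labelled isotype received a matched non-targeting antibody. Each antibody was given again with the surgery, 2 days after the first dose, and hepatocytes were taken on post-operative day (POD) 2 or 1. There were 3 libraries in each of the 4 groups, anti-Gr1 POD2, isotype POD2, anti-Gr1 POD1 and isotype POD1, with 13189392 to 15822043 counted reads per library.

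Some features of the libraries bear on every comparison. Replicates 1 and 2 of isotype POD2 differed by a chi-square per gene of 1.65, where counting noise alone gives 1, and replicates 1 and 2 of anti-Gr1 POD2 by 5.77. Each such pair was summed and counted as 1 sample, so that POD2 groups hold n = 2 and POD1 groups n = 3, or 10 samples in all. The third libraries of both anti-Gr1 groups carry different days, yet differed by 3.69, against 65.2 or more for the other 63 pairs of libraries. This cross-day pair was kept under its labels, although it differed less than the summed anti-Gr1 POD2 pair. Its libraries thus enter as 2 of the 10 samples and may not be independent. The main results are also given without the pair. Without it anti-Gr1 POD2 is 1 summed sample, so p-values for comparisons with that group then hold none of its spread. Ly6g was higher, not lower, in the libraries labelled anti-Gr1 (24.2 to 55.0 CPM, counts scaled to a common library depth) than in those labelled isotype (0.242 to 1.97 CPM), so the groups are called here by their labels only.

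Levels are CPM after scaling with TMM factors (trimmed means of log ratios between libraries), and a gene is said to pass when its Benjamini-Hochberg adjusted p over all 15647 genes, from edgeR's quasi-likelihood test, was below 0.05. Log2 fold changes are given ± SE. No label ties the replicates to separate mice, so each p-value covers the spread seen between samples, part of which may be technical. In bulk RNA, a smaller share of hepatocytes and less RNA per hepatocyte cannot be told apart.

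Upstream sequences of 3 members are shown as examples, picked for their values in the comparisons. Csad went against most other members at POD2. Tat did not pass there, but like Mat1a and Csad was higher in every anti-Gr1 POD2 library than in any isotype POD2 library. Prodh2 was the gene whose POD1 value moved most of the 45 with the cross-day pair. Each run is the 250 bases before the first listed RefSeq start (GRCm38.p6) on the gene's strand, with capitals marking CCAAT on either strand and, in Prodh2, also a C/EBP-type motif (TTGCNNAA on either strand) at -244. The windows are chr15:102205053-102205302 on the minus strand for Csad, chr8:109990186-109990435 on the plus strand for Tat and chr7:30493408-30493657 on the plus strand for Prodh2.
Csad: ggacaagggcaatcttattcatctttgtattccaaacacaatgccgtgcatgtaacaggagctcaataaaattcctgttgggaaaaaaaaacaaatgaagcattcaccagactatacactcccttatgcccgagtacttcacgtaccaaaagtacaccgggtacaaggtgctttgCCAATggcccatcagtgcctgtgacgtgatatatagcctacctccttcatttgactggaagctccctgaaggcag
Tat: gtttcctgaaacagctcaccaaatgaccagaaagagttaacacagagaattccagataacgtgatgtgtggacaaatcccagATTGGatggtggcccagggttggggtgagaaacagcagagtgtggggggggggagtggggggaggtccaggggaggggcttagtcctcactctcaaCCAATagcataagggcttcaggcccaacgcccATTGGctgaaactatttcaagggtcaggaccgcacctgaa
Prodh2: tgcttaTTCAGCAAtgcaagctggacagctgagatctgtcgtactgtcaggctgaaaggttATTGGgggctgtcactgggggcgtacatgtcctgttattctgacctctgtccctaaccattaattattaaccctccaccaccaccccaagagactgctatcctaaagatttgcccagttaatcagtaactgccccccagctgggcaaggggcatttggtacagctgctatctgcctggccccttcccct

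In the Tat window CCAAT lay at -168, -72 and -40, in the Csad window at -75 and in the Prodh2 window at -189. Over the 36 members with a listed promoter, searched on both strands over 250 bases, CCAAT occurred in 20 (55.6%), against 34.5% of 27025 mouse promoters of the same length. TATAAA occurred in 3 (8.33%, against 13%), in Hgd, Tdo2 and Ftcd, and TTGCNNAA in 3 (8.33%, against 9.55%), in Hgd, Prodh2 and Aass. The HNF4-type CAAAGTCCA, the cAMP-type TGACGTCA and the glucocorticoid response element occurred in 0 of the 36, against 0.381%, 1.62% and 0.0037% of all promoters. The Cps1, Asl, Arg1, Gpt, Kynu, Sdsl, Mat1a, Cth and Cdo1 windows were not searched.

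**Figure D1:**
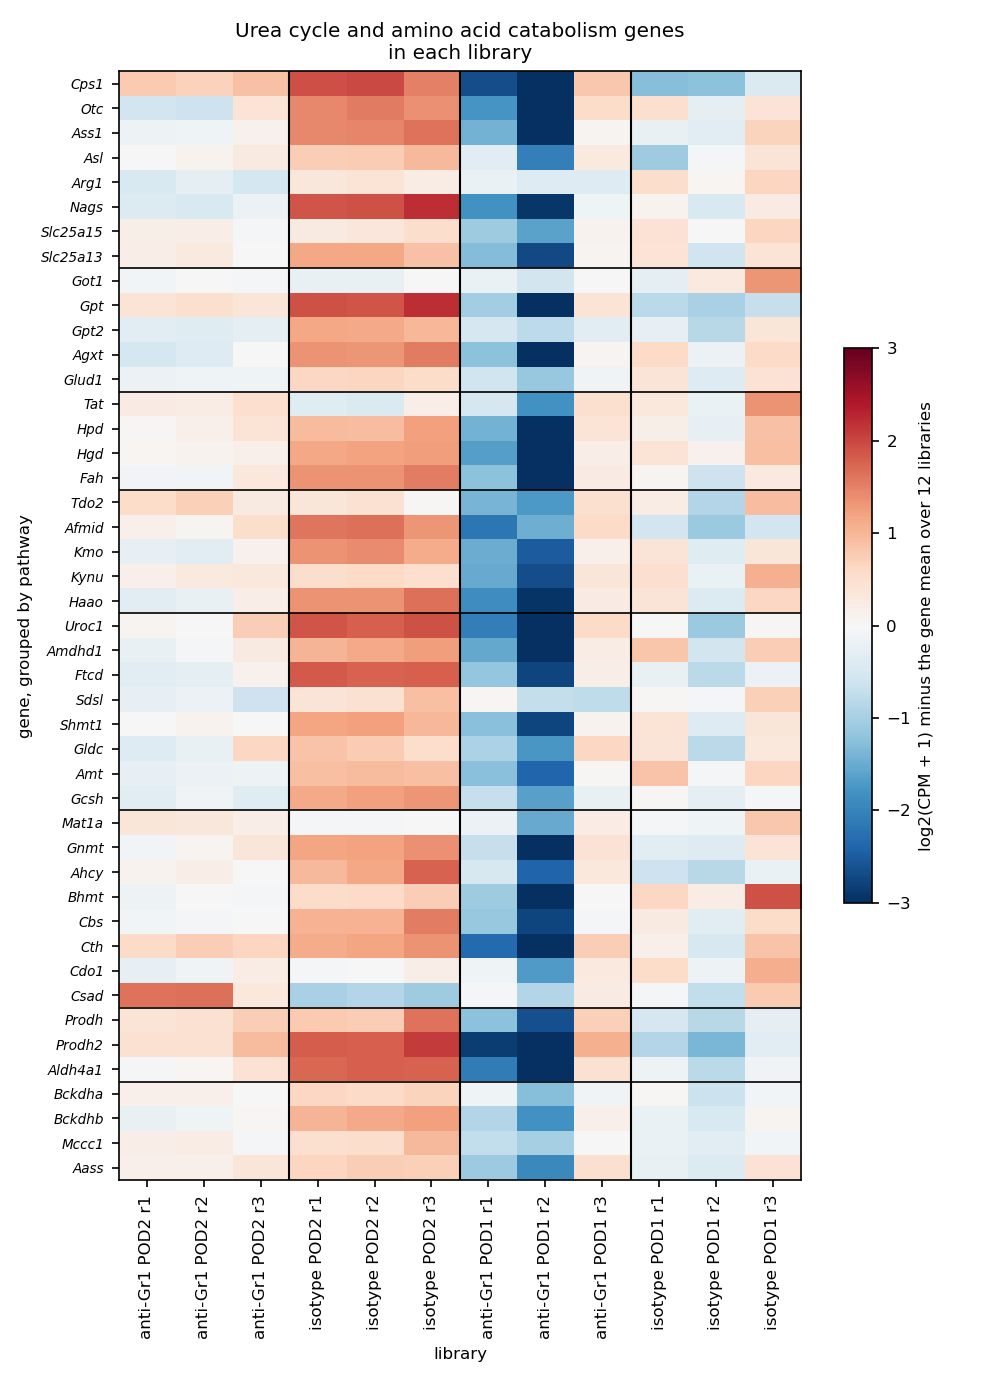
Log2(CPM + 1) of each of the 45 genes (rows, grouped by pathway with lines between groups) in each of the 12 libraries (columns), minus the gene's mean over the 12, with red above and blue below that mean and values beyond 3 drawn at the darkest shade. Isotype POD2 is red for most genes, anti-Gr1 POD1 replicates 1 and 2 are blue, replicate 3 of anti-Gr1 POD1 looks like anti-Gr1 POD2, and Csad runs the other way at POD2.

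Most of the 45 genes shared 1 pattern over the libraries. They were highest in isotype POD2, intermediate in anti-Gr1 POD2 and isotype POD1, and lowest in replicate 2 of anti-Gr1 POD1. All 3 isotype POD2 libraries lay above the other 9 libraries for 33 of the 45 genes, which was the case for 23.2% of all genes tested, and replicate 2 of anti-Gr1 POD1 was the lowest library of all for 40 (21.2% of all genes). Among the 27 genes of the hepatocyte list described below, the counts were 24 and 11. The mean log2(CPM + 1) of the 45 was 6.87, 6.93 and 7.03 in the anti-Gr1 POD2 libraries, against 7.79, 7.82 and 7.92 in those of isotype POD2. At POD1 it was 5.71, 4.48 and 7.08 under the anti-Gr1 label, against 6.89, 6.39 and 7.27 under the isotype label. The 3 anti-Gr1 POD1 libraries were thus the most unlike each other, and replicate 3 was above both others for 43 genes (29.3% of all genes), by a median of 7.22-fold over replicate 2. The cross-day pair itself differed by a median of 1.05-fold and at most 1.27-fold (Ahcy) over the 45 genes.

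Compared per kilobase of exon, the most abundant transcripts differed between groups. In isotype POD2 these were Gnmt (801 CPM per kilobase), which uses up methyl groups from S-adenosylmethionine, Hpd (749), the dioxygenase of tyrosine breakdown, Arg1 (505), Ass1 (469) and Cps1 (456). In anti-Gr1 POD2 they were Mat1a (509.5), which makes S-adenosylmethionine, Hpd (421) and Tat (409.9), the aminotransferase that opens tyrosine breakdown. Isotype POD1 was led by Arg1 (549.7), Mat1a (509), Tat (495) and Hpd (448.5). The order in anti-Gr1 POD1 rested on replicate 3: Mat1a (334), Arg1 (326) and Tat (251) led with it, and Arg1 (333), Mat1a (257), Cdo1 (166) and Tat (156) over replicates 1 and 2 alone. Cps1 stood at 235 CPM per kilobase in anti-Gr1 POD2, against 456 in isotype POD2, and at POD1 at 91.8 under anti-Gr1, against 71.1 under isotype. Over replicates 1 and 2 of anti-Gr1 POD1 alone it stood at 18.95, below the isotype level. Arg1 varied least of all members, with 2.27-fold between its highest and lowest library, and Gpt most, with 97.6-fold.

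**Figure D2:**
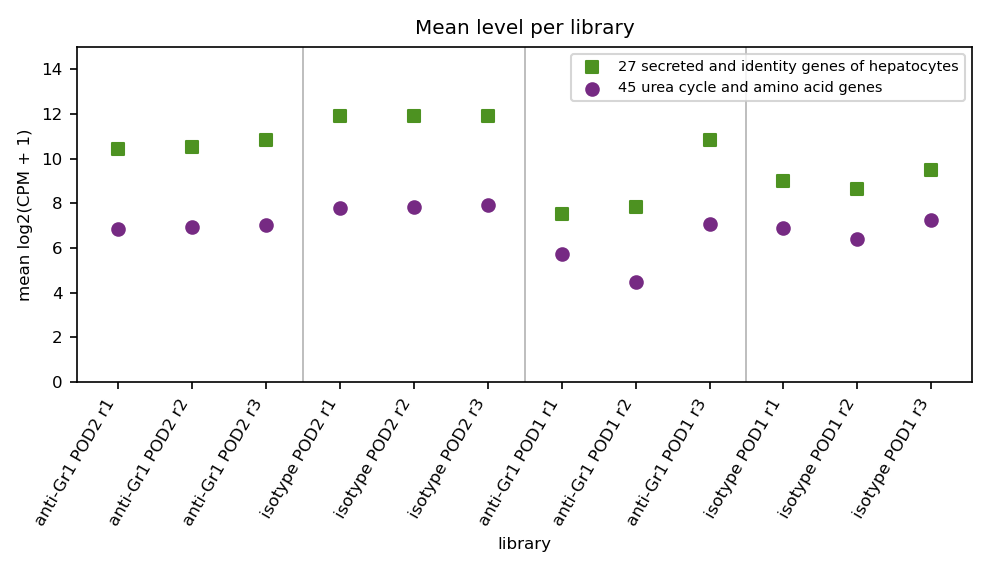
Mean log2(CPM + 1) per library of the 45 urea cycle and amino acid genes (circles) and of 27 hepatocyte secreted and identity genes (squares), with the 12 libraries along the axis. The 45 genes lie between 4.48 and 7.92 and the hepatocyte genes between 7.50 and 11.89, with both highest in isotype POD2.

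Genes of other cells and of hepatocyte identity moved with the groups too. The hepatocyte list (27 genes, such as Alb and Ttr) summed to 72930 to 98670 CPM in anti-Gr1 POD2, against 218300 to 219600 in isotype POD2. At POD1 the range was 7988 to 99110 under anti-Gr1 and 18200 to 32020 under isotype. The 45 genes together came to 12.1 to 14.9% of that sum in anti-Gr1 POD2 and 8.52 to 8.88% in isotype POD2, then 12.3 to 73.7% and 45 to 51.2% in the matching POD1 groups, so the 2 sets did not keep a fixed ratio. Neutrophil genes (15) summed to 8013 to 8978 CPM in anti-Gr1 POD2, against 2137 to 2883 in isotype POD2. At POD1 they summed to 9225 to 12530 under anti-Gr1, against 1533 to 1870 under isotype. Single neutrophil genes did not all follow the sum. From isotype POD1 to isotype POD2, 10 of the 15 passed as lower and 1 as higher, with a median log2 fold change of -2.81. Macrophage genes (13) summed to 4349 to 6202 CPM in anti-Gr1 POD2, against 1103 to 1707 in isotype POD2, with 6413 to 9090 and 5364 to 7618 in the POD1 groups, and endothelial genes (11) to 3398 to 5387, 1329 to 1800, 4550 to 6626 and 5829 to 7080 in the same order. Pancreatic acinar genes (26) ranged from 112 CPM in 1 isotype POD1 library to 474300 CPM in isotype POD2 replicate 3. None of the defining markers checked for these cells was at 0 in any library, and the part of other cells in the results below was not tested.

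At POD2, the question was whether the genes differed between antibodies once regeneration was under way. Of the 45, 1 rose and 2 fell in libraries labelled anti-Gr1 against isotype, where 25.3% of all genes passed (16.1% higher, 9.22% lower). Csad, which makes hypotaurine on the way to taurine, was the gene that rose. Gcsh, the lipoyl carrier of the glycine cleavage system, and Gpt2, the mitochondrial alanine aminotransferase, fell. The median log2 fold change of the 45 was -0.97, against 0.10 over all genes, and 39 of them had a value below 0. For 38 genes the 3 anti-Gr1 libraries all lay below the 3 isotype libraries, which was the case for 33.6% of all genes, and for 3 (Tat, Mat1a and Csad) they all lay above, which was the case for 30.6%. The split over all genes was 2518 higher and 1442 lower, but 3188 and 442 with total counts alone as the scale, which moved the median of all genes to 0.51, and 2029 and 1852 with pancreatic acinar genes left out. Relative to all genes the median of the 45 was -1.07 on each of these scales.

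Csad (chromosome 15, 102176999 to 102204724, minus strand) had 105.5, 107.6 and 41.6 CPM in anti-Gr1 POD2, against 16.4, 17.6 and 15.5 CPM in isotype POD2. The groups did not overlap, and the third anti-Gr1 library was well below the summed pair. The log2 fold change was 2.30 ± 0.632 (adjusted p = 0.0306), and 2.71 without the cross-day pair, which leaves 1 summed anti-Gr1 POD2 sample. Over 20 alternatives the adjusted p ranged between 0.000951 and 0.173. The call was lost without the summed anti-Gr1 POD2 pair (1.46), without either isotype POD2 sample (2.35 and 2.16) and without isotype POD1 replicate 1 (2.18). Csad overlaps Zfp740 on the opposite strand over 7.26% of its exons.

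Gcsh (chromosome 8, 116981810 to 116993537, minus strand) had 48.8, 57.1 and 47.8 CPM in anti-Gr1 POD2, against 137.5, 146 and 155 CPM in isotype POD2. That is a log2 fold change of -1.45 ± 0.395 (adjusted p = 0.0290), and -1.49 ± 0.403 (adjusted p = 0.0573) without the cross-day pair, when it no longer passed (0.00113 to 0.151 over the alternatives). Gpt2 (chromosome 8, 85492576 to 85527560, plus strand) had 102, 98.0 and 105 CPM in anti-Gr1 POD2, against 286, 279 and 252 CPM in isotype POD2. Its log2 fold change was -1.28 ± 0.356 (adjusted p = 0.0312), and -1.42 ± 0.476 (adjusted p = 0.0931) without that pair (0.00139 to 0.146 over the alternatives). In both genes the libraries of each group lay close together, with the anti-Gr1 values near the level of isotype POD1.

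The urea cycle genes did not pass at POD2, although all 8 had lower values in every library labelled anti-Gr1. Cps1 (chromosome 1, 67123026 to 67231259, plus strand) had 1291, 1206 and 1367 CPM in anti-Gr1 POD2 and 2853, 2971 and 2154 CPM in isotype POD2, a log2 fold change of -0.85 ± 1.13 (adjusted p = 0.611). Ass1 had 349.6, 356 and 421 CPM in anti-Gr1 POD2 and 1060, 1067 and 1203 CPM in isotype POD2 (log2 fold change -1.44 ± 0.865, adjusted p = 0.251). All groups share 1 estimate of the spread per gene, and without the cross-day pair the value of Cps1 was -1.03 ± 0.493 (adjusted p = 0.1995). Nags, with the lowest fold change of the 45, had 32.9, 32.0 and 38.9 CPM in anti-Gr1 POD2, against 166, 169 and 208.5 CPM in isotype POD2. Its log2 fold change was -2.29 ± 0.80 (adjusted p = 0.0678), and -2.54 without the cross-day pair. Arg1 had 657, 757 and 625 CPM in anti-Gr1 POD2, against 1158, 1214 and 1065 CPM in isotype POD2 (log2 fold change -0.65 ± 0.308, adjusted p = 0.156).

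Among amino acid-degrading enzymes, the medians at POD2 were -1.28 for transamination and glutamate, -0.86 for tyrosine, -1.11 for tryptophan and kynurenine, -1.04 for histidine, serine and glycine, -0.55 for methionine and sulfur, -1.14 for proline and -0.51 for branched-chain amino acids and lysine. Tat was among the exceptions, with 898, 886 and 1080 CPM in anti-Gr1 POD2, against 590.0, 563 and 877 CPM in isotype POD2 (log2 fold change 0.54 ± 0.733, adjusted p = 0.615). Mat1a had 1861, 1851 and 1678 CPM in anti-Gr1 POD2, against 1413, 1397 and 1462 CPM in isotype POD2 (log2 fold change 0.41 ± 0.582, adjusted p = 0.636). Neither passed, while the groups did not overlap in either. Hpd, which follows Tat in the same route, had 772, 830.2 and 990.0 CPM in anti-Gr1 POD2 and 1449, 1418 and 1752 CPM in isotype POD2 (log2 fold change -0.72 ± 0.977, adjusted p = 0.617). Got1, Gldc, Tdo2 and Cdo1 were the members whose libraries overlapped.

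How many of the 45 passed at POD2 depended on the libraries. Without the cross-day pair 2 passed, Csad higher and Nags lower, where 10.5% of all genes passed (5.99% higher, 4.51% lower). None passed without isotype POD2 replicates 1 and 2 (16.7% of all genes), without isotype POD2 replicate 3 (4.5%) or without anti-Gr1 POD2 replicates 1 and 2 (11.6%), and 1 passed without anti-Gr1 POD2 replicate 3 (7.02%). Replicates 2 and 3 of anti-Gr1 POD1 enter this comparison through the shared spread and the scaling factors. With replicate 2 or 3 left out, 10 and 13 passed, where 30.9% and 30.4% of all genes did. The median of the 45 was then -1.09 in each case, against -0.97 with all samples. Beside these values, 14 of 15 neutrophil genes, 12 of 13 macrophage genes and 11 of 11 endothelial genes passed as higher in anti-Gr1 POD2. Of all genes 16.1% did. Of 27 hepatocyte genes 0 passed, while 26 had values below 0, with a median log2 fold change of -1.07. Without the cross-day pair that median was -1.41, with all 27 values below 0.

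**Figure D3:**
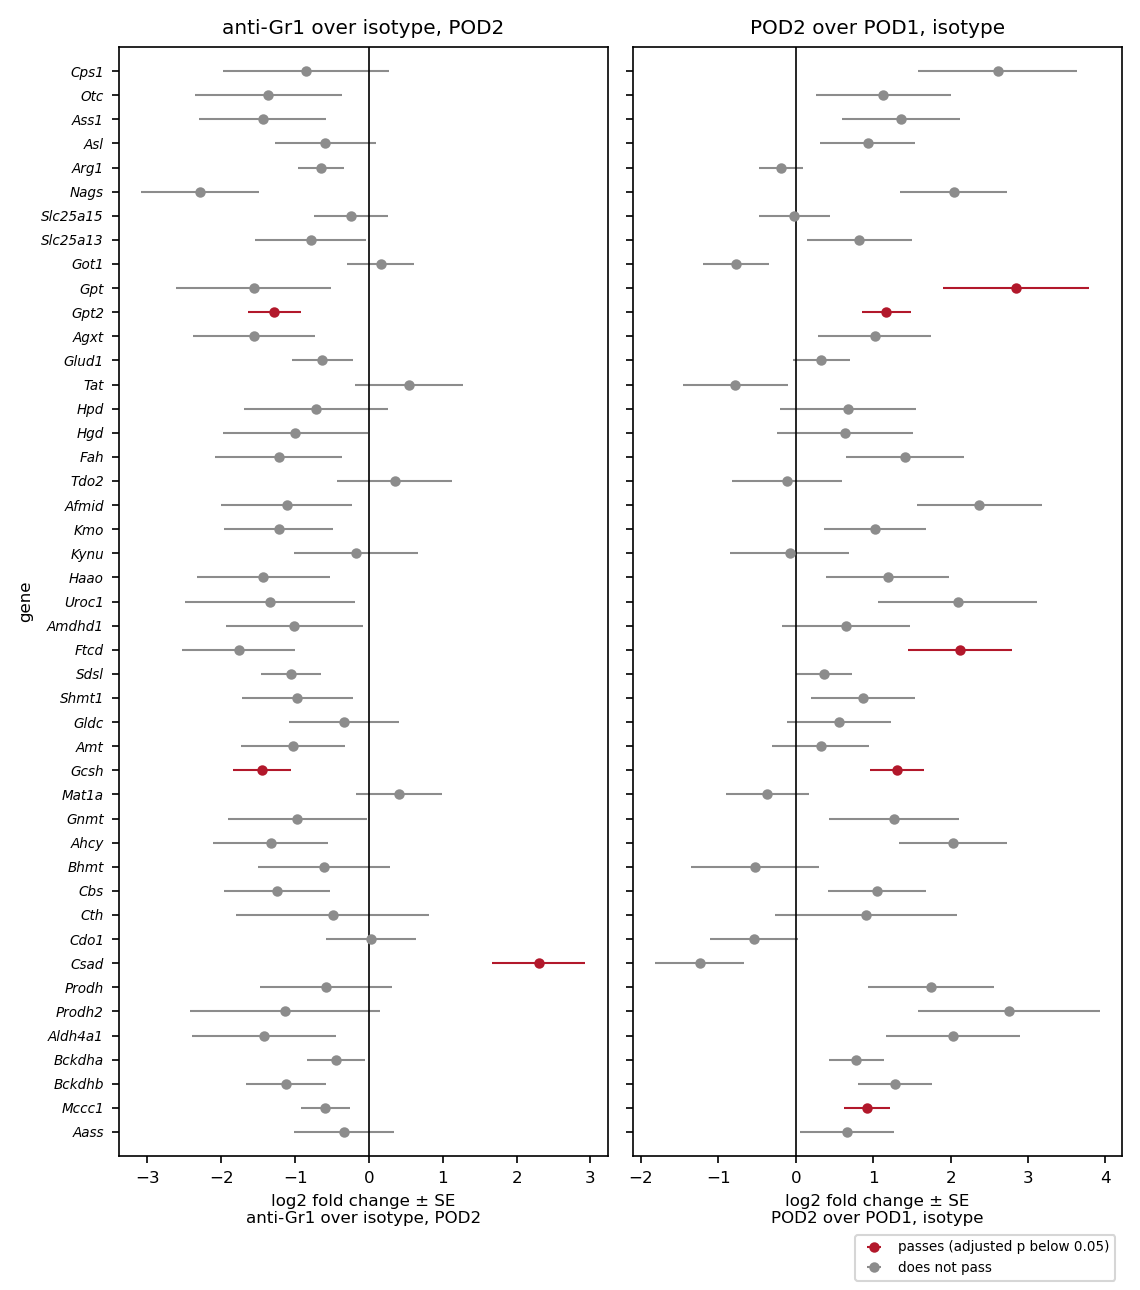
Log2 fold change ± SE of each of the 45 genes, grouped by pathway from the urea cycle at the top, for anti-Gr1 over isotype at POD2 (left) and for POD2 over POD1 in isotype (right), with red for genes that passed and grey for those that did not. On the left 39 genes lie below 0 and Csad stands out at 2.30, and on the right 35 lie above 0.

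**Figure D4:**
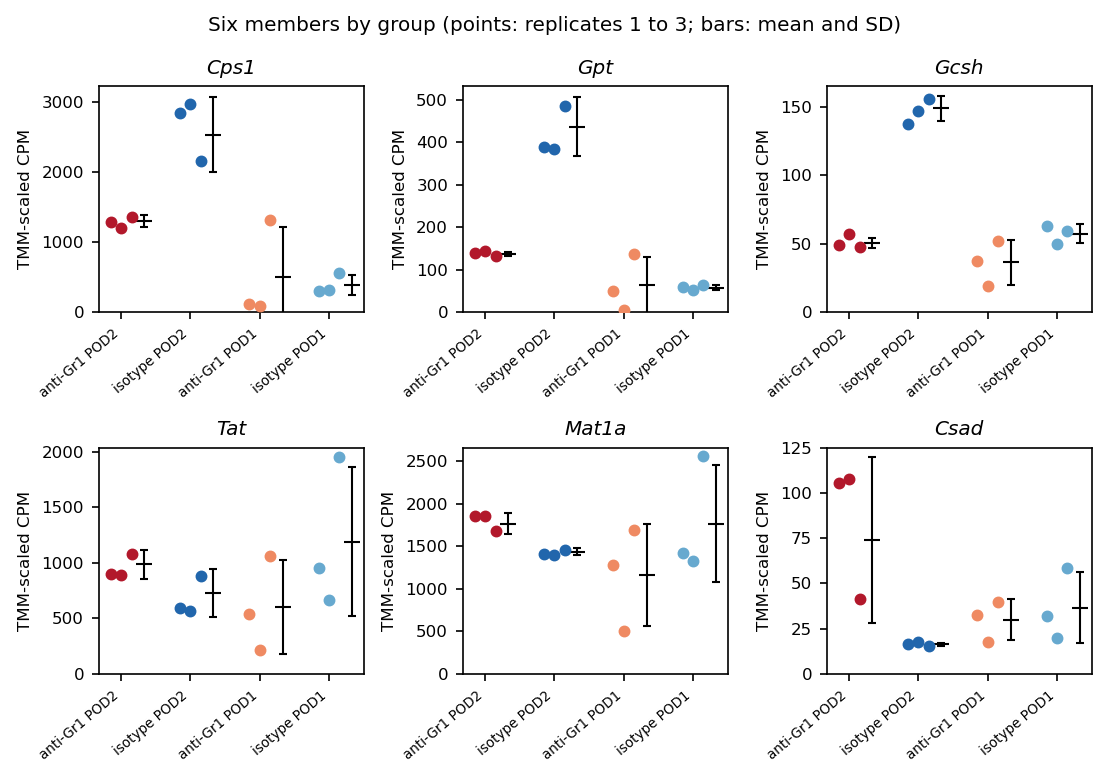
TMM-scaled CPM of Cps1, Gpt, Gcsh, Tat, Mat1a and Csad in each library (points, replicates 1 to 3 from left to right) with the group mean and SD (bars, a near-identical pair counted once and bars clipped at 0). Cps1, Gpt and Gcsh are highest in isotype POD2, Tat and Mat1a in isotype POD1 replicate 3, and Csad in anti-Gr1 POD2 replicates 1 and 2.

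The course from POD1 to POD2 was also read in the isotype libraries, which lack the test antibody. Gcsh, Gpt2, Ftcd, Mccc1 and Gpt rose, none of the 45 fell, and 40 did not pass, where 32.3% of all genes passed (12.6% higher, 19.7% lower). With total counts alone as the scale none rose and Csad and Got1 fell, while 584 of all genes rose and 6551 fell, against 1979 and 3079 with TMM. On that scale the median was 0.19 for the 45 and -0.73 for all genes, a distance of 0.93, and with TMM it was 0.92 and -0.06, a distance of 0.97. For 34 genes the isotype POD2 libraries all lay above the isotype POD1 libraries (32.1% of all genes), and Csad alone lay wholly below (31.5%).

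Gpt (chromosome 15, 76695716 to 76699686, plus strand), the cytosolic alanine aminotransferase measured in blood as a sign of liver injury, had 389, 385 and 486 CPM in isotype POD2, against 58.8, 51.9 and 63.8 CPM in isotype POD1. Every POD2 library was above every POD1 library, and the log2 fold change was 2.84 ± 0.944 (adjusted p = 0.0493). Ftcd (chromosome 10, 76575648 to 76590338, plus strand), the last enzyme of histidine breakdown, had 466, 447 and 453 CPM in isotype POD2, against 110.3, 74.0 and 115 CPM in isotype POD1 (log2 fold change 2.12 ± 0.676, adjusted p = 0.0430). Gcsh rose to 137.5, 146 and 155 CPM in isotype POD2, against 63.1, 49.7 and 59.2 CPM in isotype POD1 (log2 fold change 1.31 ± 0.349, adjusted p = 0.0223). All 3 isotype POD2 values of Gcsh lay above the values of the other 9 libraries.

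Gpt2 rose to 286, 279 and 252 CPM in isotype POD2, against 107, 70.1 and 163 CPM in isotype POD1 (log2 fold change 1.17 ± 0.316, adjusted p = 0.0233). Mccc1 (chromosome 3, 35959312 to 36000678, minus strand), a subunit of the leucine-degrading methylcrotonyl-CoA carboxylase, had 40.2, 41.6 and 57.5 CPM in isotype POD2, against 24.9, 22.9 and 26.7 CPM in isotype POD1 (log2 fold change 0.92 ± 0.301, adjusted p = 0.0463). Without the cross-day pair all 5 still rose, with 12 more: Cps1, Otc, Nags, Afmid, Kmo, Haao, Uroc1, Ahcy, Prodh, Prodh2, Aldh4a1 and Bckdhb, where 34.7% of all genes passed (17.2% higher). In that fit Cps1 had a log2 fold change of 2.70 ± 0.353 (adjusted p = 0.00175) and Prodh2, a hydroxyproline dehydrogenase, of 2.83 ± 0.319 (adjusted p = 0.00104). With all samples these were 2.61 ± 1.03 (adjusted p = 0.0805) and 2.75 ± 1.18 (adjusted p = 0.102).

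Within the urea cycle the isotype course was uneven. Cps1 had 2853, 2971 and 2154 CPM in isotype POD2, against 308, 319 and 558 CPM in isotype POD1, and Nags 166, 169 and 208.5 CPM against 47.1, 31.7 and 52.2 CPM. Arg1 had 1158, 1214 and 1065 CPM in isotype POD2, against 1316, 940.1 and 1419 CPM in isotype POD1 (log2 fold change -0.19 ± 0.281, adjusted p = 0.625), and its libraries overlapped. Slc25a15 overlapped as well (log2 fold change -0.02 ± 0.459, adjusted p = 0.983). Of the other 6 genes of the cycle and its carriers, all had every isotype POD2 library above every isotype POD1 library.

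The remaining overlaps were Got1, Tat, Mat1a, Bhmt, Cdo1, Tdo2, Kynu and Sdsl. Tat had 590.0, 563 and 877 CPM in isotype POD2, against 954, 668 and 1949 CPM in isotype POD1, and Mat1a 1413, 1397 and 1462 CPM against 1417, 1322 and 2560 CPM. Bhmt, which remethylates homocysteine, had 298, 301.1 and 336 CPM in isotype POD2, against 313, 235 and 760.0 CPM in isotype POD1. Replicate 3 of isotype POD1 held the highest value of all 12 libraries for 9 of the 45 genes (5.55% of all genes). The proline route had the highest median of the 8 groups, 2.03 on the log2 scale, and methionine and sulfur metabolism the lowest, 0.27.

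Calls in the isotype course depended on the processing and on single libraries too. Over 20 alternatives the call was lost in 10 for Gpt, 9 for Ftcd and 8 for Mccc1. For Gcsh and Gpt2 it was lost in 4 each. When replicate 1, 2 or 3 of isotype POD1 was left out, 1, 1 and 2 of the 45 passed, where 22.3%, 21.3% and 22.7% of all genes did. None passed without isotype POD2 replicates 1 and 2 (18.5% of all genes) or without isotype POD2 replicate 3 (8.4%), and 2 without either anti-Gr1 POD2 sample (27.2% in each case). With replicate 2 or 3 of anti-Gr1 POD1 left out, 19 and 18 passed, where 40.2% and 38.8% of all genes did. In the same comparison 11 of 27 hepatocyte genes rose with a median log2 fold change of 2.93 (25 and 3.01 without the cross-day pair), while 12 of 13 macrophage genes, 11 of 11 endothelial genes, 7 of 8 erythroid genes and 6 of 9 B and plasma cell genes fell. Of 15 neutrophil genes 10 fell and 1 rose, where 19.7% of all genes fell and 12.6% rose. Erythroid genes summed to 172 to 193 CPM in isotype POD2, against 1375 to 13640 CPM in isotype POD1.

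At POD1, none of the 45 genes passed between libraries labelled anti-Gr1 and isotype in edgeR, where 0.735% of all genes passed. At an unadjusted p under 0.05 there were 5, against 16.4% of all genes. DESeq2 called 1, Arg1 (log2 fold change -0.72, adjusted p = 0.00932), against 5.02% of all genes. The median log2 fold change of the 45 was -0.75, against 0.01 over all genes, with 39 values below 0. Of all genes 95 rose and 20 fell, or 50 and 20 with total counts alone as the scale. Arg1 and Bhmt had all 3 anti-Gr1 libraries below all 3 isotype libraries, which was the case for 10.2% of all genes. Arg1 (chromosome 10, 24915221 to 24927484, minus strand) had 787.5, 695 and 699 CPM in anti-Gr1 POD1, against 1316, 940.1 and 1419 CPM in isotype POD1 (log2 fold change -0.74 ± 0.252, adjusted p = 0.202 in edgeR). Bhmt had 95.4, 19.8 and 202 CPM in anti-Gr1 POD1, against 313, 235 and 760.0 CPM in isotype POD1 (log2 fold change -2.02 ± 0.758, adjusted p = 0.242).

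Most other members had 2 low libraries and 1 high library in anti-Gr1 POD1. Cps1 had 118, 92.4 and 1320 CPM in anti-Gr1 POD1, against 308, 319 and 558 CPM in isotype POD1. The first 2 libraries were below, and replicate 3 was above, every isotype POD1 library. Cth, which makes cysteine from cystathionine, had 17.6, 3.11 and 157 CPM in anti-Gr1 POD1, against 104, 66.5 and 169 CPM in isotype POD1. Otc had 21.03, 8.30 and 109 CPM in anti-Gr1 POD1, against 106, 60.9 and 99.1 CPM in isotype POD1. Replicates 1 and 2 were both below every isotype POD1 library for 37 of the 45 genes (21.5% of all genes). Replicate 3 was below these isotype libraries for 3 (35.1% of all genes), within their range for 27 and above them for 15 (29.5%).

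**Figure D5:**
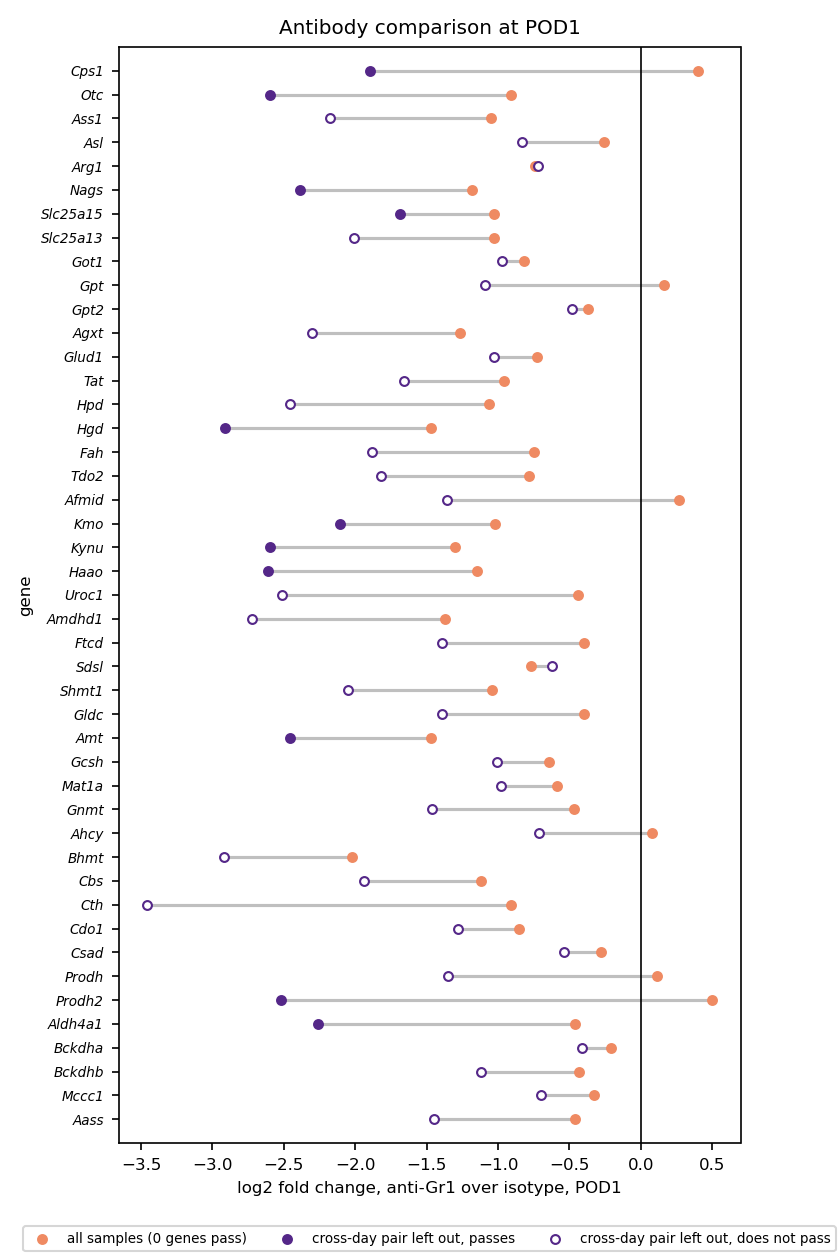
Log2 fold change of each of the 45 genes for anti-Gr1 over isotype at POD1, with all samples (orange) and without the cross-day pair (purple, filled where the gene passed), joined by a line for each gene. With all samples 39 genes lie below 0 and none passed, and without the pair all 45 lie below 0 and 11 passed.

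Without the cross-day pair all 45 values at POD1 were below 0, the median was -1.69, and 11 genes fell, where 5.05% of all genes passed (3.04% lower). These were Cps1, Otc, Nags and Slc25a15 of the urea cycle, Hgd of tyrosine breakdown, Kmo, Kynu and Haao of the kynurenine route, Amt of glycine cleavage, and Prodh2 and Aldh4a1 of proline breakdown. Cps1 had a log2 fold change of -1.90 ± 0.377 (adjusted p = 0.0370) without the pair and 0.40 ± 0.915 (adjusted p = 0.857) with it. For Prodh2 (4.02, 2.91 and 74.9 CPM in anti-Gr1 POD1, against 18.7, 12.9 and 27.7 CPM in isotype POD1) it was -2.52 ± 0.366 (adjusted p = 0.0158) without the pair and 0.50 ± 1.05 (adjusted p = 0.846) with it. The lowest value was that of Cth, -3.46 ± 0.775 (adjusted p = 0.0529), which did not pass. For 37 genes the remaining 2 anti-Gr1 libraries lay below all isotype libraries, which was the case for 21.5% of all genes. With replicate 3 of anti-Gr1 POD1 alone left out, 23 passed, where 8.69% of all genes did.

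In anti-Gr1 POD1 the 45 genes and the hepatocyte list did not order the libraries alike. The 45 genes summed to 5889, 2796 and 12150 CPM in replicates 1, 2 and 3, and the hepatocyte list to 7988, 13950 and 99110 CPM. Beside the POD1 values, 10 of 15 neutrophil genes and 1 of 13 macrophage genes passed as higher in libraries labelled anti-Gr1, where 0.735% of all genes passed. Of the 27 hepatocyte genes 0 passed, with a median log2 fold change of 0.76. These values are with the cross-day pair kept. Without that pair the hepatocyte median was -1.52, all 27 values were below 0 and 8 genes fell, while 13 of 15 neutrophil genes rose, and of 13 macrophage genes 1 rose and 1 fell. Replicates 1 and 2 of anti-Gr1 POD1 were both below every isotype POD1 library for 20 of the 27 hepatocyte genes (21.5% of all genes). Replicate 3 was above every one for 25 (29.5% of all genes). Alb, the main plasma protein of hepatocytes, had 524, 1208 and 14130 CPM in anti-Gr1 POD1, against 4145, 3553 and 5256 CPM in isotype POD1. The hepatocyte genes and the 45 were thus both low in replicates 1 and 2, and the part of this in the values of the 45 was not tested.

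In the course under the anti-Gr1 antibody, none of the 45 genes and 0 of all 15647 genes (0%) passed between POD2 and POD1 in edgeR. At an unadjusted p under 0.05 there were 1 of the 45, Csad, and 769 of all genes (4.91%), and DESeq2 called 0. The median of the 45 was 0.83, against 0.00 over all genes, and 44 had values above 0. Csad had 105.5, 107.6 and 41.6 CPM in anti-Gr1 POD2, against 32.8, 17.5 and 39.8 CPM in anti-Gr1 POD1 (log2 fold change 1.33 ± 0.540, adjusted p = 0.720). Csad and Bckdha were the 2 genes with every anti-Gr1 POD2 library above every anti-Gr1 POD1 library (6.79% of all genes). The near-identical cross-day pair puts 1 library on each side of this comparison, which bears on these counts and on the tests above. In that pair Csad had 41.6 CPM at POD2 and 39.8 CPM at POD1, and Bckdha 40.3 and 36.8 CPM.

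Without the cross-day pair this course gave 4 genes that rose, where 3.38% of all genes passed (3.28% higher), and a median of 1.69. These were Cps1 (log2 fold change 3.57 ± 0.462, adjusted p = 0.00734), Prodh2 (3.83 ± 0.431, adjusted p = 0.00433), Aldh4a1 (2.62 ± 0.427, adjusted p = 0.0179) and Afmid (2.36 ± 0.454, adjusted p = 0.0368). In that fit anti-Gr1 POD2 is 1 summed sample, which is assumed to vary like the other groups. For 42 genes its 2 libraries lay above the 2 remaining anti-Gr1 POD1 libraries (29% of all genes). With only anti-Gr1 POD1 replicate 3 left out, 21 passed, where 7.22% of all genes did. In the same course without the cross-day pair 19 of 27 hepatocyte genes rose, with a median of 2.80. Aldh4a1 shares 30% of its 50-base stretches with Gm21969 and Afmid 41.3% with other genes, such as Gm20708, so their counts may include or lack reads of those genes.

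The test of whether the antibody difference changed between days passed for 0 of the 45 genes in edgeR, where 5.6% of all genes passed (549 with values above 0 and 328 below, but 302 and 368 with relative log expression scaling, 1145 and 128 with total counts alone and 321 and 367 without pancreatic acinar genes). At an unadjusted p under 0.05 there was 1, Csad, against 24.7% of all genes. DESeq2 called Csad (log2 fold change 2.47, adjusted p = 0.0175) as the only 1 of the 45, against 12.4% of all genes. In edgeR the value of Csad was 2.58 ± 0.792 (adjusted p = 0.0911), and 3.25 (adjusted p = 0.110) without the cross-day pair. The median of the 45 was -0.23 with all samples and 0.56 without the pair, when again none of the 45 passed in edgeR, with 0.518% of all genes passing. Without anti-Gr1 POD1 replicate 2, 3 passed, namely Gpt, Ahcy and Gcsh, all with values below 0, where 14.4% of all genes passed. A difference in the number of genes passing at POD1 and POD2 is therefore not shown to be a difference between the days.

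The other genes of amino acid breakdown, a list of 64 that covers further steps of the same routes and their transporters, were read in the same fits. At POD2 none rose and 5 fell in libraries labelled anti-Gr1 (9.22% of all genes fell), with a median of -0.92, among them Sqor, Acad8, Grhpr and Got2. Sqor, which oxidises sulfide in the mitochondrion, had 78.3, 90.7 and 107.8 CPM in anti-Gr1 POD2, against 202, 207 and 227 CPM in isotype POD2 (log2 fold change -1.06 ± 0.287, adjusted p = 0.0285). In the isotype course 11 rose (12.6% of all genes rose) and none fell, with a median of 1.10, among them Pcca of propionate metabolism (log2 fold change 1.33 ± 0.290, adjusted p = 0.0101) and Sqor (1.15 ± 0.256, adjusted p = 0.0110). Their medians were -0.49 for the antibodies at POD1 and 0.80 for the anti-Gr1 course, and -1.38 and 1.56 without the cross-day pair. Without that pair 15 fell at POD1, where 3.04% of all genes fell, and 34 rose in the isotype course, where 17.2% rose. At POD2 the median was then -1.04, with 1 summed anti-Gr1 sample, and not all of the 5 calls were kept. For the interaction the median of the 64 was -0.46, with 51 values below 0, and 0.10 without the pair.

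Of 15 regulators known to act on these genes, among them Hnf4a, Nr3c1, Cebpa and Ppara, 1 passed in any of the 5 comparisons with all samples. Of all genes 0 to 32.3% passed in these comparisons. Creb3l3, a fasting-responsive transcription factor of hepatocytes, rose in the isotype course (log2 fold change 2.25 ± 0.710, adjusted p = 0.0414). Without the cross-day pair 4 regulators fell and 0 rose at POD1, where 3.04% of all genes fell. In the isotype course 5 then rose and 0 fell, where 17.2% of all genes rose. Their median in the anti-Gr1 course was 0.84, and 1.49 without the pair.

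Across the 10 samples, the genes most like Cps1 in log2 CPM were Slc10a1 (Pearson r = 0.995), the bile acid uptake carrier, and Agmo (0.995), followed by Marc1, Sdc2 and Cyp2d9. Those most like Tat were Pck1 (0.978), the entry enzyme of gluconeogenesis, and 2 other members, Mat1a (0.955) and Cdo1 (0.948), followed by Gm16573 and Etfbkmt. Among those most like Gnmt were Enho (0.986), Aspdh (0.984), Mapk15 and Adck5. These values describe samples that share groups and scaling and include the cross-day pair, and no test was made. Tat, Mat1a and Cdo1 also shared the place of their highest library, isotype POD1 replicate 3.

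Some members cannot be counted with certainty, since the sources used here do not give the counting rule for shared reads. Of 50-base stretches of their exons, 68.7% in Ahcy were shared with other annotated genes, such as Gm4737, 49.6% in Bckdha with B3gnt8 on the opposite strand, 38.6% in Ass1 with Gm5424, 26.1% in Bhmt with others such as Gm5096, and 13.5% in Nags with Gm11586. For Cps1, Otc, Arg1, Gpt, Tat and Mat1a none were shared.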

How the data were processed

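The deposited values are raw read counts per gene, made by the authors from poly(A) RNA sequencing; per the submitters' processing notes, the tools included STAR, HTSeq, cutadapt and DESeq2, with genome build GRCm38. The sources used here give no versions and no strand setting for the counting. Groups were taken from the sample titles. Libraries of 1 group whose counts differed by a chi-square per gene under 10 were summed. The counts of all 4 groups were fitted with 1 mean per group in edgeR 4.0.16 (R 4.3.3; quasi-likelihood, robust, TMM factors, default filter on low counts, limma 3.58.1), and 5 comparisons were adjusted over all 15647 genes by Benjamini-Hochberg. DESeq2 1.42.0 was an alternative, with other scalings, no filter, pairs kept separate, a block for replicate number and each sample left out. The steps were run on simulated counts with 1 spread for all genes and no near-identical or outlying libraries. Only the antibody comparison at POD1 was checked there, so that run cannot show how such libraries affect the calls. Depth was 13189392 to 15822043 counts per library. No label says that a replicate number marks a shared mouse or day, and correlations of same-numbered libraries had both signs. No pairing was therefore used in the main fit, and whether the numbers pair the samples is not known. Coordinates and exon lengths are those of GENCODE M21 on GRCm38. All 45 genes could be named by role. Values per library were given for those that passed and the most abundant, with up to 4 genes per further list, and others were named after their values were seen. The genes and lists were chosen with earlier results of these data known. Some items are not reported here.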

Additional observations from a re-analysis of the deposited data

How the results depend on the processing

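The medians over the 45 genes kept their sign under all alternatives for 4 comparisons, ranging from -1.11 to -0.56 at POD2 and from 0.19 to 1.22 in the isotype course, and the interaction median changed sign. The number passing depended on the processing. At POD1 it was 0, but 11 without the cross-day pair (median -1.69), 31 with the 12 libraries separate and that pair out (median -1.69), 1 in DESeq2, and 0 to 23 with 1 sample left out (medians -1.69 to -0.44), where 0.735%, 5.05%, 14.7%, 5.02% and 0.134 to 8.69% of all genes passed. At POD2 it was 3, but 9 with the 12 libraries separate, 22 with the pair out as well, 1 without scaling factors, 29 with the groups fitted alone, 7 in DESeq2 and 0 to 13 with 1 sample left out, where 25.3%, 40.8%, 40.1%, 23.2%, 37.1%, 29.3% and 4.5 to 30.9% of all genes passed. In the isotype course it was 5, but 13 with the 12 libraries separate, 17 without the cross-day pair, 24 with both changes, 8 with relative log expression factors, 2 (both lower) without factors, 8 without pancreatic acinar genes, 24 with the groups fitted alone, 11 in DESeq2 and 0 to 19 with 1 sample left out, where 32.3%, 45.7%, 34.7%, 48.6%, 32.7%, 45.6%, 33.1%, 43.3%, 37% and 8.4 to 40.2% of all genes passed. In the anti-Gr1 course it was 0, but 4 without the cross-day pair, 29 with the 12 libraries separate as well (medians 1.69 and 1.69), and 0 to 21 with 1 sample left out (0.44 to 1.74), where 0%, 3.38%, 15.8% and 0 to 7.22% of all genes passed. For the interaction it was 0, but 1 with the 12 libraries separate, 4 with the pair out as well, 1 without scaling factors, 1 in DESeq2 and 0 to 3 with 1 sample left out, where 5.6%, 16.2%, 12.8%, 8.14%, 12.4% and 0 to 14.4% of all genes passed. Its median was 0.56 and 0.64 with the pair out and -0.64 to 0.93 with 1 sample left out. With a replicate block over 12 libraries, 14 passed at POD2, 17 in the isotype course and 1 for the interaction (38.2%, 43.3% and 12.7% of all genes). Same-numbered libraries correlated between -0.275 and 0.345. Near-identical libraries enter these correlations, so they cannot tell whether the numbers pair the samples. The causes were not tested, and with the groups fitted alone the interaction was not fitted. The lowest count of any of the 45 genes in a library was 16 (Afmid), and each POD2 group holds at most 2 independent samples.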

Other observations

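Genes of the amino acid stress response and of amino acid use by dividing cells were read in the same fits. Of 17 genes of the first list, 3 fell in libraries labelled anti-Gr1 at POD2, where 9.22% of all genes fell, and 5 rose in the isotype course, where 12.6% of all genes rose. Among the 5, Pycr1 had 11.9, 11.4 and 46.8 CPM in isotype POD2, against 3.31, 7.15 and 1.73 CPM in isotype POD1. Pancreatic acinar genes summed to 94480, 93150 and 474300 CPM in the same isotype POD2 libraries, against 26430, 91630 and 112 CPM in those of isotype POD1. The part of acinar RNA in these values was not tested. Shmt2, the mitochondrial enzyme that splits serine to glycine, had 97.8, 96.0 and 102 CPM in anti-Gr1 POD2, against 303, 277 and 319 CPM in isotype POD2 (log2 fold change -1.50 ± 0.325, edgeR adjusted p = 0.0126). Psph, which completes serine synthesis, had 10.8, 10.01 and 7.77 CPM in anti-Gr1 POD2, against 25.3, 26.7 and 21.6 CPM in isotype POD2 (-1.28 ± 0.223, adjusted p = 0.00605). Neither gene overlapped between groups. The third gene that fell was Gpt2.

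In the second list, of 15 genes, Arg2 was among those that rose at POD2. Got2 fell, a call that was lost without the cross-day pair. Arg2, the mitochondrial arginase, had 22.2, 25.6 and 14.9 CPM in anti-Gr1 POD2, against 4.32, 4.93 and 7.51 CPM in isotype POD2 (1.82 ± 0.539, adjusted p = 0.0396). It fell in the isotype course, by 1.53 on the log2 scale. Neutrophil, macrophage and endothelial sums were higher in the same anti-Gr1 POD2 libraries, and the part of those cells in these values was not tested.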
